A study of Mus musculus with 4 samples.

Results

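The genes described here encode the parts with which a T cell senses antigen: the CD3 chains of the receptor complex (Cd3d, Cd3e, Cd3g), the coreceptors (Cd4, Cd8a, Cd8b1), the receptor-proximal kinases (Lck, Zap70) and a pair of costimulatory receptors (Cd28, Icos). Every non-control spot that the array files name after 1 of these 10 genes was taken, which gave 33 spots and 15 probes. Each of the 15 probes was among the 33674 that could be tested, and the 10 genes were among 23761. RNA was extracted from 4 mouse ears 48 h after treatment with 2,4-dinitrofluorobenzene (DNFB), a hapten used to provoke contact allergy. The 2 wild-type mice carried the floxed allele RelAfl/fl alone, and the 2 mutant mice (K14Cre RelAfl/fl) carried the same floxed allele and the K14Cre transgene, so that all 4 ears shared both the floxed allele and DNFB. RelA (p65) is a subunit of NF-kB, and the keratin 14 promoter drives Cre in basal keratinocytes and other stratified epithelia, thymic epithelium in part included, but not in T cells. The labels give no age, sex or strain and no untreated ear, and they do not say whether the mice of a group were littermates. The question set by the design is how RNA of the allergen-treated ear differs when keratinocytes lack RelA. It is asked here of the T cell receptor machinery.

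A T cell binds peptide presented on MHC through its variable receptor chains, which carry no signalling tail of their own. The CD3 chains carry the signalling motifs, CD4 or CD8 binds the MHC molecule and brings in the kinase Lck, and Lck phosphorylates the CD3 tails, to which the kinase ZAP-70 binds. CD28 and ICOS give the second signal. In contact allergy, primed CD4 and CD8 T cells enter hapten-treated skin, and mouse epidermis also holds resident gamma delta T cells, which carry CD3 and mostly lack CD4 and CD8.

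The probes below are those of Cd3d, Cd3e and the coreceptors, printed as designed from 5′ to 3′. They are whole for Cd3d, the second Cd4 probe and the second Cd8a probe and 30 bases for the others. The Cd3g probe is not printed. The capitals mark the hexamer AATAAA, the usual polyadenylation signal, searched on the printed strand only. It was present in 5 of the 15 probes (Cd3e, Cd4, Lck, Cd28 and Icos), 2 times in the Cd4 probe. Over the array it was present in 10.1% of all 55681 probes. Each of the 5 was the brightest probe of its gene, but Cd3e, Lck and Cd28 have no other probe.
Cd3d: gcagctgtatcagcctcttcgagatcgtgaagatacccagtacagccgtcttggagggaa
Cd3e: taatgcaaaaggcAATAAAgtgtattggct
Cd4, brightest probe: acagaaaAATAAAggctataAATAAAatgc
Cd4, probe printed in 10 spots: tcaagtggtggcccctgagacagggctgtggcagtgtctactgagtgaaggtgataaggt
Cd8a, probe printed in 10 spots: tctatctattgttactatcattttatacct
Cd8a, second probe: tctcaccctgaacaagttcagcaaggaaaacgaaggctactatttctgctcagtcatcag
Cd8b1: ctctcgtggcttatatatttcttctctcac
In mouse build mm9 the Cd3d probe lies at chr9:44794171-44794402, a span of 232 bases for a probe of 60, and the probes of the 3 CD3 genes lie within 29.0 kb of each other. The brightest Cd4 probe is at chr6:124814711-124814770 and the second at chr6:124817706-124817765, 2995 bases away. The 10-spot Cd8a probe is at chr6:71328911-71328970, the second at chr6:71323885-71323944, and the Cd8b1 probe at chr6:71287231-71287290. The probes of Cd28 and Icos lie 227 kb apart on chromosome 1.

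Each ear gave 1 array, and values are log2 intensities relative to the 75th percentile of the array, so that 0 stands for that percentile. Well above background were 61.21% to 64.27% of an array's spots, and the spots of all 15 member probes were so on all 4 arrays. Of the member spots, 0 were saturated and 3 outlier flags fell on the array of wild-type mouse 2, 1 at the 10-spot Cd4 probe and 2 at the 10-spot Cd8a probe. The array of mutant mouse 2 stands apart: across genes it correlated with the others at r between 0.9828 and 0.9878, against 0.9925 to 0.9932 among the other 3, and it has a damaged area of 2944 spots, none of them a member's. The single tested probe of Rela, the gene targeted in the mutants, had values of 4.48 and 4.601 in wild-type mice 1 and 2, against 4.59 and 4.72 in mutant mice 1 and 2 (adjusted p = 0.899 by limma). Its spot lies in the damaged area, its place relative to the floxed exons is not known here, and the extract holds RNA of cells without Cre, so this value does not check the genotypes.

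No member differed between the groups beyond the threshold. By limma with Benjamini-Hochberg adjustment over all tested probes, 0 of 15 member probes had an adjusted p under 0.05 (background over all tested probes: 0.00891% lower and 0.0119% higher in the mutants), and their adjusted p ran from 0.825 to 0.988. At an unadjusted p under 0.05 the count was also 0, beside 3.56% of all tested probes lower and 2.99% higher. At 2 member probes, Cd3d and the brightest Cd4 probe, both mutants lay below both wild-type mice, and at 0 both lay above, beside 17.6% and 18.7% of all tested probes. Of the 15 differences 13 were below 0, and at the brightest probe of each gene all 10 were, with a median log2 fold change (mutant minus wild type) of -0.22, against 0.01 over all 23761 tested genes. The fit had 2 mice per group and the error of a member's log2 fold change was 0.11 to 0.39, so a p that misses the threshold does not show that the groups were alike. The labels do not say how the replicates were obtained, so p-values measure only the spread between these ears. In a whole ear, fewer T cells and less RNA per T cell cannot be told apart.

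**Figure D1:**
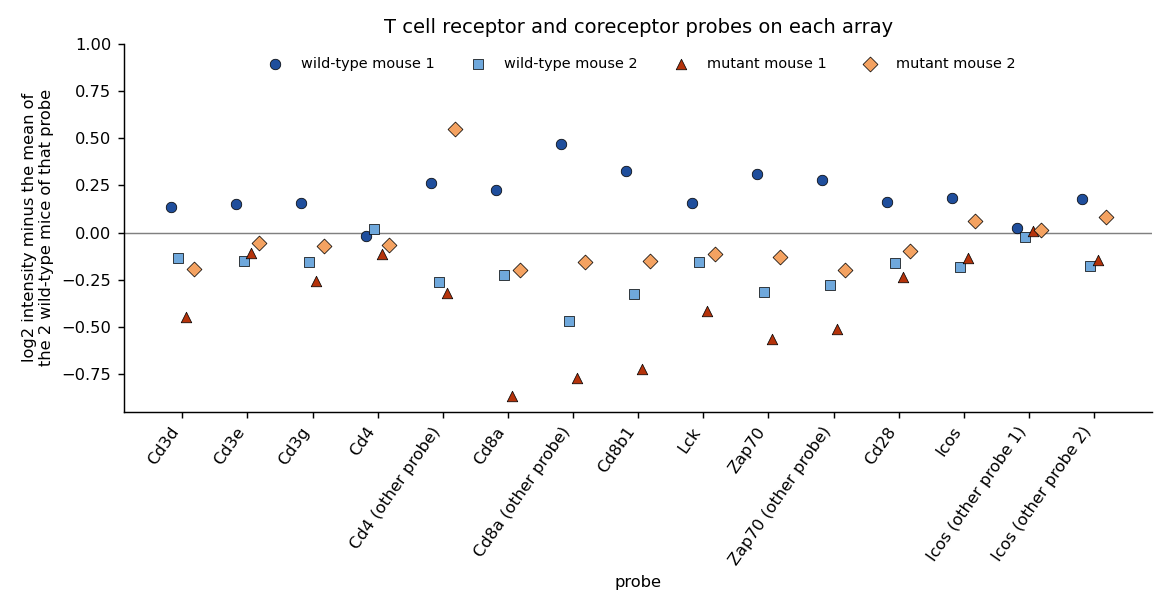
Value of every member probe on each array, as log2 intensity minus the mean of the 2 wild-type mice at that probe; each gene's brightest probe comes first and carries its name alone. Wild-type mouse 1 is the highest at 13 of 15 probes and mutant mouse 1 the lowest at 11.

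Of the receptor complex, Cd3d, the CD3 delta chain, had values of 1.39 and 1.12 in the ears of wild-type mice 1 and 2 against 0.81 and 1.06 in those of mutant mice 1 and 2; the 2 values of a group are given in this order throughout. Both mutants were below both wild-type mice, but mutant mouse 2 was only 0.06 below wild-type mouse 2, while the wild-type mice were 0.27 apart. Its log2 fold change was -0.32 ± 0.16 (SE; 95% confidence interval -0.75 to 0.11; adjusted p = 0.825), the smallest adjusted p among the members, in ratio terms 0.800 of the wild-type level with an interval of 0.594 to 1.08, and it was -0.19 without either wild-type mouse 1 or mutant mouse 1. Cd3e, the epsilon chain, read 2.18 and 1.88 in the wild-type ears against 1.92 and 1.97 in the mutants. Here wild-type mouse 1 alone was high and wild-type mouse 2 was the lowest of the 4, and the difference of -0.08 ± 0.15 (-0.47 to 0.31; adjusted p = 0.942) was smaller than the 0.30 between the wild-type mice. Cd3g, the gamma chain, read 1.05 and 0.73 in the wild-type ears against 0.64 and 0.82 in the mutants, so the groups overlapped, with a difference of -0.16 ± 0.16 (-0.59 to 0.26; adjusted p = 0.895) that was -0.007 without wild-type mouse 1 and -0.07 without mutant mouse 1. The intervals of Cd3e and Cd3g leave out decreases to below 0.721 and 0.664 of the wild-type level.

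The receptor chains that pair with CD3 were read from probes picked by the files' gene descriptions after these had been seen. The alpha constant region read -2.37 and -2.64 in the wild-type ears against -3.10 and -2.71 in the mutants, a difference of -0.40 ± 0.19 (adjusted p = 0.812). Beta constant region 1 read 2.60 and 2.38 in the wild-type ears against 2.12 and 2.06 in the mutants, a difference of -0.40 ± 0.13 with an unadjusted p of 0.0318 and an adjusted p of 0.715. Beta constant region 2 read 2.70 and 2.39 in the wild-type ears against 2.24 and 2.37 in the mutants (-0.24 ± 0.15; adjusted p = 0.863). At these 3 probes the groups did not overlap and wild-type mouse 1 was the highest, as it was at the gamma constant region, where the groups overlapped (-0.16 ± 0.20; adjusted p = 0.916). Descriptions naming neither a constant nor a variable gene gave 2 tested alpha probes (0.19 ± 0.29 and 0.22 ± 0.26) and 1 beta probe (-0.12 ± 0.36). Probes of variable segments gave 27 further tested readings, of which 19 were below 0 with a median of -0.26. All 14 beta readings were below 0 (median -0.46), against 3 of 10 alpha readings (median 0.07), 1 of 1 delta and 1 of 2 gamma. Of the 27, 5 were lower, all of them beta, and 0 higher at an unadjusted p under 0.05, beside 3.56% and 2.99% of all tested probes, and the smallest adjusted p was 0.551. Tested were 14 of 24 beta and 10 of 34 alpha variable probes, and beta variable 5 was read by overlapping probes. A probe could be tested on the signal of 1 group alone. That favours values below 0 where the group is wild type and above 0 where it is mutant. Many variable readings were dim: in the mutants, beta variable 29 read -5.49 and -7.58 and beta variable 17 read -5.98 and -5.56. Both are among the 5 lower, and their detection in the mutants is not given here. Whether beta chain RNA fell as a whole was not tested. The beta constant regions are near-identical in sequence, so their probes are uncertain as separate readings.

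Of the coreceptors, Cd4, which marks helper and regulatory T cells and is also made by some macrophages and dendritic cells, read 2.01 and 2.05 in the wild-type ears against 1.92 and 1.96 in the mutants at its brightest probe. The groups did not overlap, and all 4 values lay within a narrow band: the difference was -0.09 ± 0.11, and its 95% interval, -0.38 to 0.20, spans 0.771 to 1.15 of the wild-type level (adjusted p = 0.914). This is the only member for which wild-type mouse 1 was not the highest at the brightest probe. The 10-spot Cd4 probe printed above gave another pattern, with -3.07 and -3.60 in the wild-type ears and -3.66 and -2.78 in the mutants. There wild-type mouse 1 and mutant mouse 2 were high and the other two low, and the difference was 0.11 ± 0.35 (-0.83 to 1.05; adjusted p = 0.970).

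Cd8a, the alpha chain of the coreceptor of cytotoxic T cells, also made by some dendritic cells, read -2.15 and -2.61 in the wild-type ears against -3.25 and -2.58 in the mutants at its 10-spot probe. Mutant mouse 1 was the lowest and wild-type mouse 1 the highest, while wild-type mouse 2 and mutant mouse 2 were 0.03 apart. The difference of -0.53 ± 0.29 was the largest among the members, with an interval from -1.30 to 0.23 and an adjusted p of 0.844. It was -0.29 with normexp background correction, -0.20 without mutant mouse 1 and -0.31 without wild-type mouse 1. The second Cd8a probe read -3.42 and -4.36 in the wild-type ears against -4.66 and -4.05 in the mutants (-0.46 ± 0.39; adjusted p = 0.881). Cd8b1, the beta chain that pairs with CD8 alpha on conventional cytotoxic T cells, read -2.60 and -3.25 in the wild-type ears against -3.65 and -3.08 in the mutants. All 3 CD8 probes put the 4 mice in the same order at both ends: wild-type mouse 1 highest and mutant mouse 1 lowest. The Cd8b1 difference was -0.44 ± 0.31 (-1.25 to 0.37; adjusted p = 0.867), and it was -0.18 with normexp, -0.11 without wild-type mouse 1 and -0.15 without mutant mouse 1. The CD8 probes and the 10-spot Cd4 probe lay well under the 75th percentile of their arrays. The errors of their differences were 0.29 to 0.39, against 0.11 at the brightest Cd4 probe. Not every dim probe had a wide error: an Icos probe at -2.88 and -2.93 in the wild-type ears also had 0.11.

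At the 10-spot probes the scatter between spots of an array can be set beside the difference between arrays. With 1 array per ear, that difference joins the ear with its labelling, hybridisation and array background. At the Cd8a probe the spots ran from 136 to 169 in intensity with a median of 147 in wild-type mouse 1, from 97.0 to 114 with a median of 102 in wild-type mouse 2, from 55.5 to 79.1 with a median of 65.4 in mutant mouse 1 and from 84.7 to 109 with a median of 103 in mutant mouse 2. No spot of wild-type mouse 1 was as low as any of the other 3 mice, and no spot of mutant mouse 1 was as high. At the Cd4 probe the medians were 77.0 and 51.7 in the wild-type ears and 47.9 and 85.6 in the mutants, with spots from 71.4 to 90.6 and 45.7 to 57.8 and from 43.1 to 56.6 and 75.9 to 95.2. The spread between spots of an array, an SD of 0.07 to 0.16 on the log2 scale, was smaller than the 0.45 and 0.53 between the 2 wild-type mice at these probes and the 0.67 and 0.87 between the 2 mutants. Spots of an array share 1 labelled RNA and are no replicates of a mouse.

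**Figure D2:**
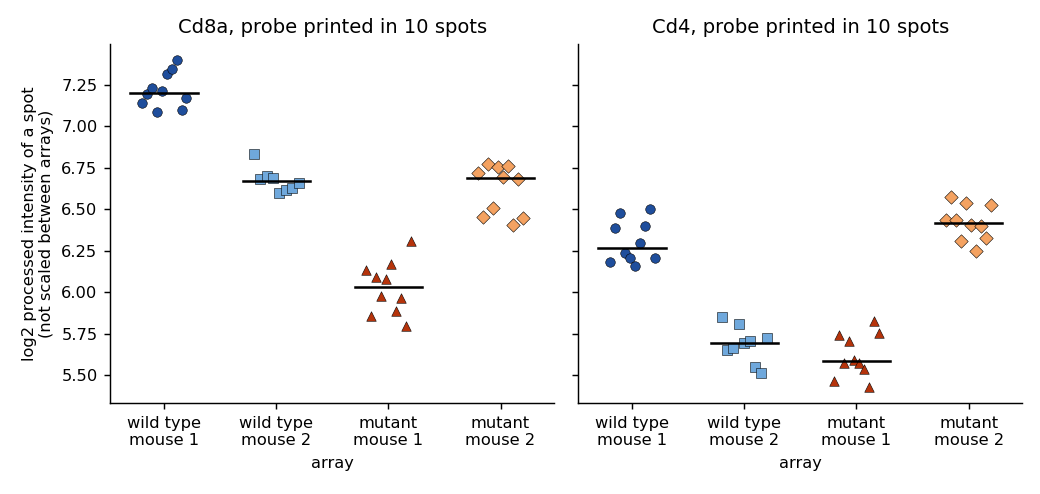
Log2 processed intensity, not scaled between arrays, of the single spots of the Cd8a probe (left) and the Cd4 probe (right) that are printed 10 times on each array; spots with an outlier flag (2 and 1, both in wild-type mouse 2) are left out and bars are medians. Spots of 1 array lie close together, while the 2 mice of a group lie apart: Cd8a medians are 147 and 102 in the wild-type and 65.4 and 103 in the mutant mice.

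Of the kinases, Lck, which starts the signal at the coreceptor, read 2.38 and 2.07 in the wild-type ears against 1.81 and 2.11 in the mutants. Wild-type mouse 2 and mutant mouse 2 were 0.04 apart, so the groups overlapped, and the difference was -0.26 ± 0.18 (-0.74 to 0.21; adjusted p = 0.866), or -0.11 without either wild-type mouse 1 or mutant mouse 1. Among the 63 other genes tested within 1 Mb of the Lck probe (chr4:129225614-129225673), 28 differences were below 0 with a median of 0.02. At an unadjusted p under 0.05, 7 were lower and 2 higher, beside 3.32% and 2.82% of all tested genes. The share of lower genes was thus above that of the array, and its cause was not tested. Zap70, the kinase recruited to the phosphorylated CD3 chains, read 0.99 and 0.37 in the wild-type ears against 0.12 and 0.55 in the mutants at its brightest probe. The wild-type mice were 0.63 apart there, more than the difference of -0.35 ± 0.27 (-1.07 to 0.38; adjusted p = 0.876), and the difference was -0.04 without wild-type mouse 1 and -0.13 without mutant mouse 1. The second Zap70 probe, at -0.38 and -0.94 in the wild-type ears and -1.18 and -0.86 in the mutants, kept the same order of the mice at both ends and gave -0.36 ± 0.24 (adjusted p = 0.866).

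Of the costimulatory receptors, Cd28, the receptor for CD80 and CD86, read -0.51 and -0.83 in the wild-type ears against -0.91 and -0.77 in the mutants. Apart from wild-type mouse 1 the values were nearly level, and the difference was -0.17 ± 0.16 (-0.59 to 0.25; adjusted p = 0.892), or -0.01 without wild-type mouse 1. Icos, the receptor for ICOS ligand that appears after activation, read 1.62 and 1.25 in the wild-type ears against 1.30 and 1.497 in the mutants at its brightest probe. Its 3 probes gave the smallest differences of the 15: -0.04 ± 0.18 (-0.50 to 0.43; adjusted p = 0.980), -0.03 ± 0.18 and 0.01 ± 0.11. At all 3 Icos probes wild-type mouse 2 was the lowest and wild-type mouse 1 the highest, so the wild-type mice enclosed both mutants. The probe at chr1:61052582-61052641, with -2.88 and -2.93 in the wild-type ears and -2.90 and -2.89 in the mutants, spanned 0.05 between the wild-type mice and less between the mutants, the narrowest range among the members.

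**Figure D3:**
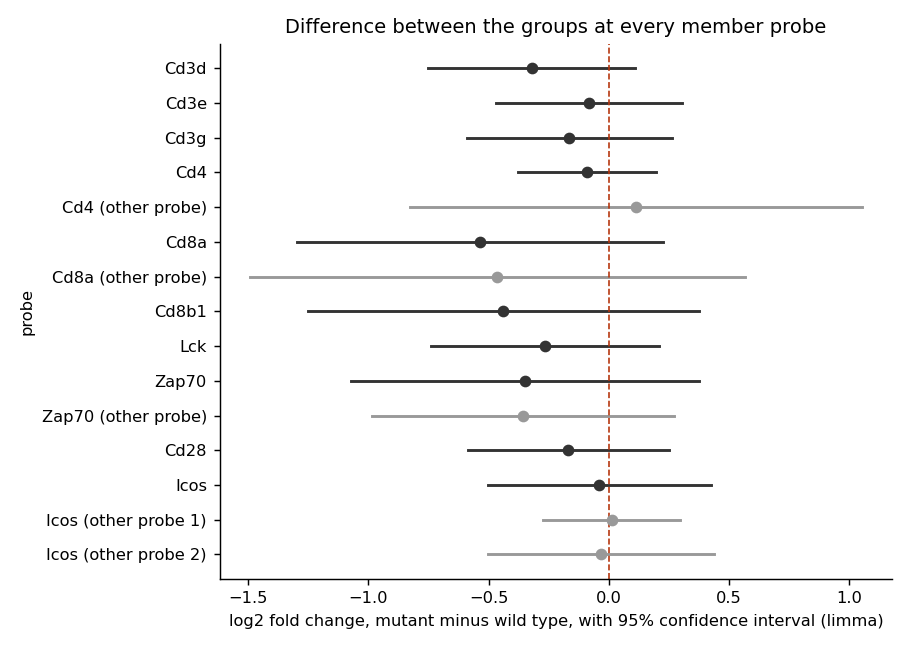
Log2 fold change (mutant minus wild type, limma) of every member probe with its 95% confidence interval; black is the brightest probe of a gene and grey its other probes. All 15 intervals include 0 (dashed line), the narrowest at the brightest Cd4 probe and the first of the other Icos probes.

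The median gap between mice of a group was wider than the median difference between the groups, which was -0.17 over the 15 probes. Wild-type mouse 1 was above wild-type mouse 2 at 14 of 15 probes (93.3%, against 45.3% of all tested probes), with a median gap of 0.36, and mutant mouse 2 was above mutant mouse 1 at all 15, with a median gap of 0.26. Wild-type mouse 1 was the highest of the 4 at 86.7% of the member probes and at 25.0% of all tested probes, and mutant mouse 1 the lowest at 73.3% and 25.99%. Wild-type mouse 1 lay above both mutants at 14 probes, but wild-type mouse 2 did so at only 2, and it lay below mutant mouse 2 at 13. Members share arrays and in part cells, so these counts describe 4 ears and no independent readings. With wild-type mouse 1 left out, the median over the 10 genes was -0.07, and Cd3e (0.067) and Icos (0.15) were above 0. Without mutant mouse 1 Icos was also above 0 (0.061).

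**Figure D4:**
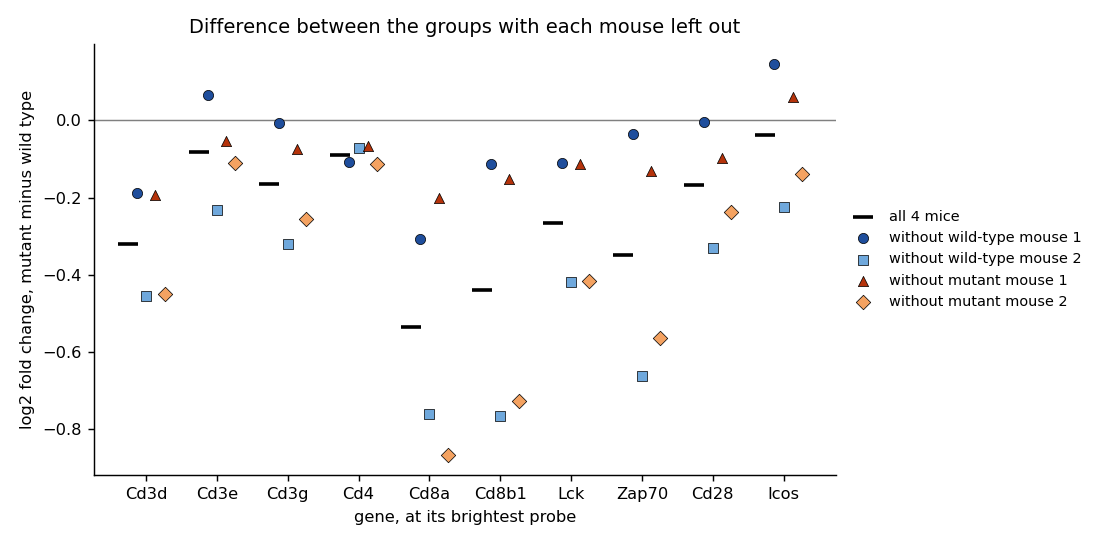
Log2 fold change (mutant minus wild type) of each gene at its brightest probe with all 4 mice (black bar) and with each mouse left out in turn. Without wild-type mouse 1 Cd3e and Icos lie above 0 and the median over the genes is -0.07, against -0.37 without wild-type mouse 2.

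Other genes of the pathway were read from lists, each gene at its brightest tested probe and members left out. Among all tested genes, 3.32% were lower and 2.82% higher at an unadjusted p under 0.05, the groups did not overlap at 17.4% (lower) and 18.9% (higher), and 0.00842% passed the adjusted threshold in each direction. Of 33 tested genes of T cell receptor signalling, 28 differences were below 0 (median -0.23), 16 did not overlap and were lower, 5 were lower and 0 higher at the unadjusted threshold, and 0 passed after adjustment. That median was -0.09 without wild-type mouse 1, -0.12 without mutant mouse 1 and -0.13 with normexp. Sh2d1a, the adaptor SAP of SLAM family receptors, read -2.32 and -2.59 in the wild-type ears against -3.37 and -3.17 in the mutants (-0.82 ± 0.15; unadjusted p = 0.00422, adjusted p = 0.530). Lat, the membrane adaptor that ZAP-70 phosphorylates, read 0.43 and 0.16 in the wild-type ears against -0.13 and -0.14 in the mutants (-0.43 ± 0.14; adjusted p = 0.715). Both thus held all mutant values below all wild-type values, unlike Lck and Zap70 themselves. Ubash3a, a phosphatase family member that dampens receptor signals and was well above background in 1 of the 2 mutants, gave -0.68 ± 0.32 (adjusted p = 0.812). Themis was well above background in 0 of the 2 mutants and gave -0.58 ± 0.13 (adjusted p = 0.583). Ubash3a and Themis were thus tested through the wild-type group alone, which favours values below 0. Both are in the counts below 0 and without overlap, and Themis is also in that at the unadjusted threshold. Of the receptor chain list only Cd247, the CD3 zeta chain, and 1 gamma variable gene were tested under the listed symbols: Cd247 read -3.73 and -3.98 in the wild-type ears against -4.63 and -3.59 in the mutants, so that the mutants enclosed the wild-type mice (-0.26 ± 0.37; adjusted p = 0.924), and Tcrg-V1 gave -0.02 ± 0.12.

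Of 26 tested surface and costimulation genes 22 were below 0 (median -0.13), and 0 passed after adjustment. The median was 0.0011 without wild-type mouse 1, -0.06 without mutant mouse 1, -0.08 with normexp and -0.32 without wild-type mouse 2. Cd27, a TNF receptor family member of T cells, gave -0.44 ± 0.18, Pdcd1, the checkpoint receptor PD-1, -0.40 ± 0.26, and Cd226, an activating receptor, -0.38 ± 0.31. The ligand side, carried mainly by antigen-presenting cells, had 8 of 11 tested genes below 0 (median -0.11) and 1, Tnfrsf14, lower at the unadjusted threshold (-0.41 ± 0.13; adjusted p = 0.715). Pdcd1lg2 and Cd274, which encode the PD-1 ligands, gave -0.56 ± 0.25 and -0.33 ± 0.17, and Tnfsf18, the GITR ligand, 0.38 ± 0.31. Of 16 T cell transcription factors 11 were below 0 (median -0.05, or 0.04 without wild-type mouse 1), with 0 past the unadjusted threshold in either direction: Eomes gave -0.61 ± 0.38, Tbx21 (T-bet) -0.37 ± 0.29, Tcf7 -0.28 ± 0.17 and Klf2 0.28 ± 0.22. Of 6 tested markers of gamma delta and epidermal T cells, 5 were below 0. Their median was -0.22, or -0.12 with normexp and -0.36 with the damaged area left out. Klrk1, the receptor NKG2D, was lower at the unadjusted threshold (-0.95 ± 0.30, adjusted p = 0.706).

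Markers of leukocytes as a whole lay on the same side as the members. All 12 pan-leukocyte genes were below 0 (median -0.32, or -0.19 without wild-type mouse 1), 10 without overlap and 3 at the unadjusted threshold, and wild-type mouse 1 was the highest at 11. Their linear values summed to 136.8 and 120.5 times the 75th percentile in the wild-type ears and to 107.5 and 108.7 times it in the mutants. Itgb2, the common beta chain of leukocyte integrins, gave -0.46 ± 0.11 (adjusted p = 0.593) and Coro1a, an actin regulator of leukocytes, -0.38 ± 0.12 (adjusted p = 0.692). Beside the pan-leukocyte median difference of -0.32, Cd8a (-0.53), Cd8b1 (-0.44) and Zap70 (-0.35) lay further below 0, Cd3d (-0.32) lay level with it, and the other members lay nearer to 0. With the list's median taken on each array first, its difference was -0.35. Against that, Zap70 was level and only Cd8a and Cd8b1 lay below. Relative to the mean of Cd3d, Cd3e and Cd3g the mutant minus wild-type difference was -0.34 for Cd8a, -0.25 for Cd8b1, 0.10 for Cd4 and 0.15 for Icos. These relative values carry no test. The order of the members around the pan-leukocyte median depended on the setting. With normexp that median was -0.294, with Cd8a at -0.287, Cd8b1 at -0.18, Cd3d at -0.36 and Zap70 at -0.37. Without mutant mouse 1 it was -0.31, with Cd8a at -0.20 and Cd8b1 at -0.15. Without wild-type mouse 1 it was -0.19, with Cd8a at -0.31 and Cd8b1 at -0.11. Without wild-type mouse 2 or mutant mouse 2, both CD8 genes lay below it. The part that a shift of all leukocyte RNA has in the members' values was not tested.

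Among other cell types, 10 of 11 natural killer genes were below 0, with a median of -0.52 that was -0.20 without wild-type mouse 1, -0.23 without mutant mouse 1 and -0.30 with normexp. Wild-type mouse 1 was above wild-type mouse 2 at 10 of these 11 genes (median gap 0.64), wild-type mouse 2 above mutant mouse 1 at all 11 (0.47), and mutant mouse 2 above mutant mouse 1 by a median of 0.47. Their linear values summed to 19.4 and 13.5 times the 75th percentile in the wild-type ears and to 10.02 and 12.5 times it in the mutants. Of 8 tested B cell genes 7 were below 0 (median -0.21, or -0.06 with normexp). Of 14 monocyte and macrophage genes 11 were below 0 and 4 were lower at the unadjusted threshold, with a median of -0.16 that was -0.02 when wild-type mouse 1 was left out and -0.35 when the other was. Dendritic and Langerhans cell genes had a median of -0.07 over 14, mast cell genes of -0.12 over 9 (0.16 without wild-type mouse 1) and neutrophil genes of 0.02 over 12, with 3 higher and 1 lower at the unadjusted threshold. Of the markers of the ear itself, 1 cartilage gene was not tested: keratinocyte genes had a median difference of 0.04 over 11, fibroblast genes of 0.01 over 8, endothelial genes of -0.11 over 8 (-0.01 without wild-type mouse 1), skeletal muscle genes of -0.24 over 7 and cartilage genes of 0.01 over 6. The muscle median was 0.02 without mutant mouse 2 and -0.50 without mutant mouse 1, and the cartilage median ran from -0.17 to 0.15 with a mouse left out. Between the mutants, mouse 2 minus mouse 1 was a median of -0.51 over the muscle genes and 0.17 over the keratinocyte genes. The part of tissue composition in the members' values was not tested.

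**Figure D5:**
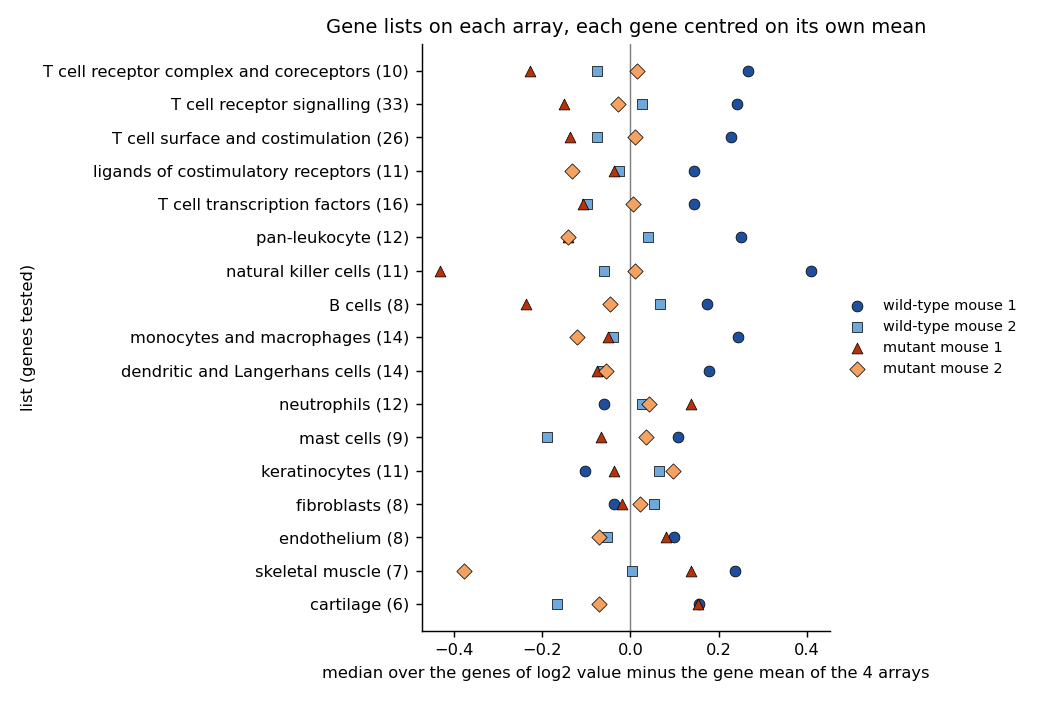
Median over the genes of each list of the log2 value on an array minus that gene's mean of the 4 arrays, with the number of tested genes in brackets. Wild-type mouse 1 lies farthest to the right for every list shown except neutrophils, keratinocytes and fibroblasts, level with mutant mouse 1 for cartilage (0.16 and 0.15) and close to it for endothelium, and mutant mouse 2 lies far to the left for skeletal muscle (-0.38).

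The 5 genes outside the group whose values over the 4 arrays lay nearest to the members' mean profile were Klhdc8b, Plxdc1, Ccn5, Slc9b2 and Cldn9, by Euclidean distance after each gene was centred on its own mean (distances 0.02 to 0.04 on the log2 scale). That mean profile was 0.30 and -0.06 in the wild-type ears and -0.27 and 0.02 in the mutants. Over only 4 arrays such likeness is common: 6932 of 23751 other genes lay as near as the farthest member.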

How the data were processed

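RNA of 4 ears (100 ng each) was labelled with Cy3 and hybridised to 4 single-colour mouse arrays on 1 slide, scanned on 1 day. Per the file headers, the deposited intensities (processed, raw mean and local background) were written by Agilent Feature Extraction 10.7.3.1, with a background fitted over the array and surrogate values for dim spots. The deposited flags are 0 or 1 per spot. The authors' series table was, from its values, the linear ratio of the processed intensity to the array median (largest log2 deviation 1.46e-05 over 59305 spots of each array). The files give mm9 positions. The place of a probe in exons or UTRs is not given here.

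From these values, log2 intensities minus the array's 75th percentile (589 to 664 in intensity) were computed. Control spots (3671) and outlier spots were left out and spots of a probe averaged (55596 of 55681 probes). Probes well above background in both mice of 1 or more groups were tested with lmFit and eBayes of limma 3.58.1 (R 4.3.3, package data.table, version 1.17.8), two-sided, with Benjamini-Hochberg adjustment over 33674 probes at 0.05. A gene stands for its brightest tested probe. Errors after ± are limma's standard errors with 2 mice per group, on 2 residual and 2.55 prior degrees of freedom. Array number limits precision. Scripts were tested on simulated data. Figures used matplotlib 3.10.9 in python 3.11.15.

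The members and gene lists were chosen with earlier results of these data known, so lists carry counts and medians and no test. Named are all members, of each list up to 4 genes with the largest absolute difference (fewer are printed, and 1 gene is not reported here), and the 5 genes with the most similar profile. Receptor chain probes were chosen after the descriptions in the files had been seen. The replicate numbers in the labels were not taken to pair mice, since no label says that they do. Deviations of same-numbered mice correlated at -0.19 across genes, which cannot decide this with 2 mice per group. Alternatives were another background correction, 3 other scalings, the series table, 2 other filters, 2 other units of the fit, eBayes with trend and robust, a replicate block, the damaged area left out and each mouse left out. The crossed block and a wider damaged area were added after seeing the data.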

Additional observations from a re-analysis of the deposited data

How the results depend on the processing

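In every alternative run 0 member probes passed the threshold. The median log2 fold change over the members was -0.22, between -0.24 and -0.17 over the other settings and between -0.37 and -0.07 with a mouse left out, the last without wild-type mouse 1. Signs turned for Cd4 with the mean of its probes (0.013), for Cd3e without wild-type mouse 1 (0.067, range -0.23 to 0.067 with a mouse left out) and for Icos without wild-type mouse 1 (0.15, range -0.22 to 0.15) and without mutant mouse 1 (0.061). The cause was not tested. With a mouse left out, the list medians ran from -0.37 to -0.09 for receptor signalling, -0.32 to 0.0011 for surface and costimulation genes, -0.14 to 0.04 for transcription factors, -0.41 to -0.19 for pan-leukocyte genes, -0.58 to -0.20 for natural killer cells, -0.35 to -0.02 for monocytes and macrophages and -0.50 to 0.02 for skeletal muscle. With the replicate number as a block, the smallest adjusted p of a member was 0.893, and 1 probe of the array was called lower and 0 higher, against 3 and 4 without it; the block changed no call of a member. With crossed numbers 1 probe of the array was called lower and 0 higher, and the smallest adjusted p of a member was 0.542. Over the whole array the calls were 13 lower and 22 higher with trend and robust, 1 and 0 without a filter, 1 and 1 with probes above background on all 4 arrays, 2 and 2 with 1 value per gene, 0 and 0 without either wild-type mouse, 142 and 19 without mutant mouse 1 and 1 and 0 without mutant mouse 2. Where 1 mouse stood for a group, it was assumed to vary like the others. With the wider damaged area left out Cd3d had no value. Dim signal limits the CD8 probes and the 10-spot Cd4 probe, and 2 mice per group limit all.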
